A study of Homo sapiens with 12 samples.

Results

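The 44 DNA replication genes named by function, out of 19618 protein-coding genes of GENCODE 44 on chromosomes 1 to 22 and X, were examined for ARID1A and H3K4me3 at their promoters. The question was whether promoters of cell cycle genes that carry H3K4me3 lack ARID1A. ARID1A belongs to the BAF form of the SWI/SNF complex, which moves and evicts nucleosomes with energy from ATP. H3K4me3, trimethylation of lysine 4 on histone H3, marks the first nucleosomes of active and poised genes. The data came from CUT&RUN, in which an antibody brings a nuclease to its target in permeable cells and the DNA released there is sequenced. The cells were RT112, an established line from a human bladder transitional cell carcinoma, which the study counted among lines with intact ARID1A. The labels name no treatment. The 12 samples made 4 groups of 3 replicates, namely ARID1A with an Abcam antibody, ARID1A with a CST antibody, H3K4me3, and the control IgG, whose regions were not analysed here.

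The 3 lists analysed held called regions merged by the authors over the replicates, with 37501 Abcam, 32932 CST and 9765 H3K4me3 regions on the chromosomes used. They hold positions only, so the strength of a signal, its depth and its spread between replicates are unknown, and no test over replicates was possible. A promoter here means the window within 1 kb of an annotated transcription start site (TSS), taking every protein-coding transcript, and the canonical TSS is that of the transcript Ensembl marks as the main one. Intervals below are 95% exact (Clopper-Pearson) intervals, which assume independent genes and reflect counting error alone. The cell type was described with marker genes added after results were seen, so this is no independent check. H3K4me3 lay at the promoters of 9 of 10 urothelial and epithelial genes, all but UPK2. It lay at 0 of 5 immune and 0 of 5 fibroblast and endothelial genes. The share over all protein-coding genes outside the replication genes was 53.0%.

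DNA replication starts when the origin recognition complex (ORC) and the licensing factors CDC6 and CDT1 load the MCM helicase onto DNA. The kinase CDC7, CDC45 and the GINS complex then switch the helicase on. Polymerase alpha-primase lays down primers, the RFC complex loads the PCNA clamp, polymerases delta and epsilon copy the strands, and FEN1 and LIG1 finish the lagging strand. Many of these genes are switched on by E2F factors as cells enter S phase.

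The promoters of the replication genes were nearly all marked by H3K4me3. An H3K4me3 region lay at 40 of the 44 promoters (90.9%, interval 78.3 to 97.5%), against 10369 of 19574 other protein-coding genes (53.0%). The exceptions were MCM2, MCM6, GINS4 and POLA1. ARID1A was present at most of the marked promoters, and at about the same share as elsewhere. Of the 40, 25 carried regions of both ARID1A antibodies (62.5%, interval 45.8 to 77.3%), against 63.8% of the 10369 other genes with H3K4me3. An Abcam region alone lay at 5 (12.5%), against 12.5% of other genes, and a CST region alone at 2 (5.00%), against 4.94%. Neither antibody had a region at 8 promoters (20%, interval 9.05 to 35.6%), against 18.8% of other genes. Each share of the replication genes thus lay near that of other marked promoters, and the interval of each included it. As a group, the replication promoters with H3K4me3 did not lack ARID1A regions. The intervals remain wide, since 40 genes allow a share with neither antibody of up to 35.6%.

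**Figure D1:**
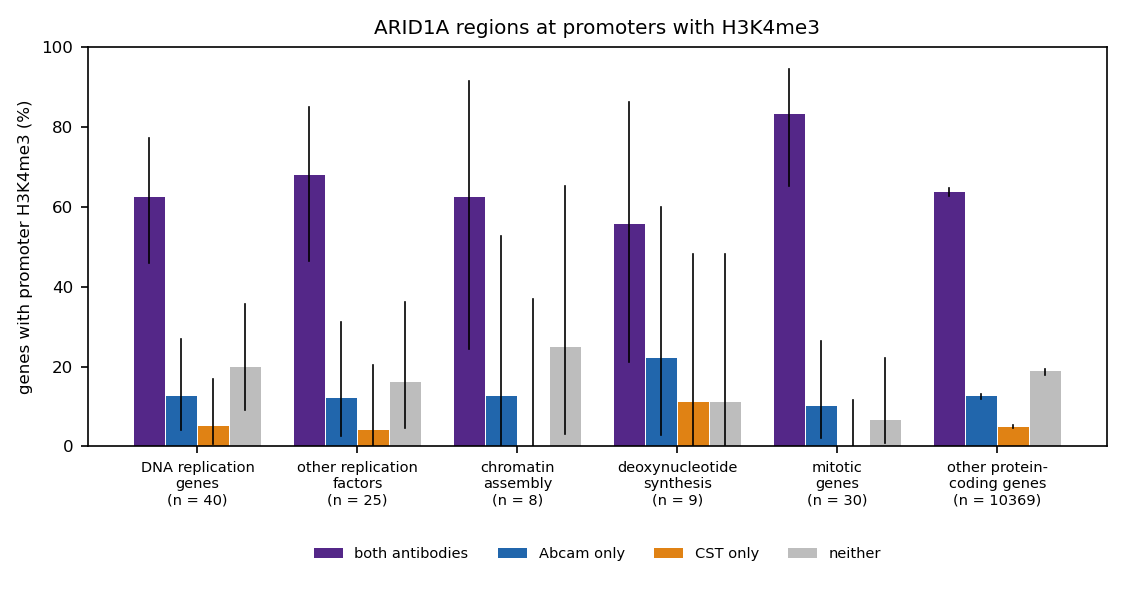
Share of genes with promoter H3K4me3 (%) that carried regions of both ARID1A antibodies, of 1 of them or of neither, for the DNA replication genes, 4 other gene lists and all other protein-coding genes. Lines are 95% exact intervals. Both antibodies lay at 62.5% of the replication genes and 63.8% of other genes, and mitotic genes had the highest share, 83.3%.

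Where both antibodies were called at a replication gene, their regions overlapped. An overlap needed only 1 bp, and the regions already had to touch a promoter of the same gene. Overlap of the lists was therefore likely beforehand and does not show that both antibodies marked the same place. Abcam and CST regions overlapped each other at all 27 replication promoters with both, which include MCM2 and GINS4, and at 24 of the 25 with H3K4me3 (96.0%) the regions of all 3 lists overlapped. The exception was RFC4. These shares were near those of other genes with both antibodies, 99.3% for the antibodies and 97.2% for all 3 lists. The widest Abcam region was wider than the widest CST region at 19 of the 27, a share that was not counted at other genes. At PCNA, for instance, those regions lay at different starts. The widths of promoter regions were also near those of other marked genes. The median width was 1660 bp for Abcam (n = 30, range 967 to 3185 bp), against 1781 bp at other genes with H3K4me3. For CST it was 1667 bp (n = 27, range 1051 to 2797 bp), against 1650 bp, and for H3K4me3 3073 bp (n = 40, range 1652 to 5210 bp), against 3156 bp. A width says how far a region reached above the caller's threshold and not how much ARID1A was bound.

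**Figure D2:**
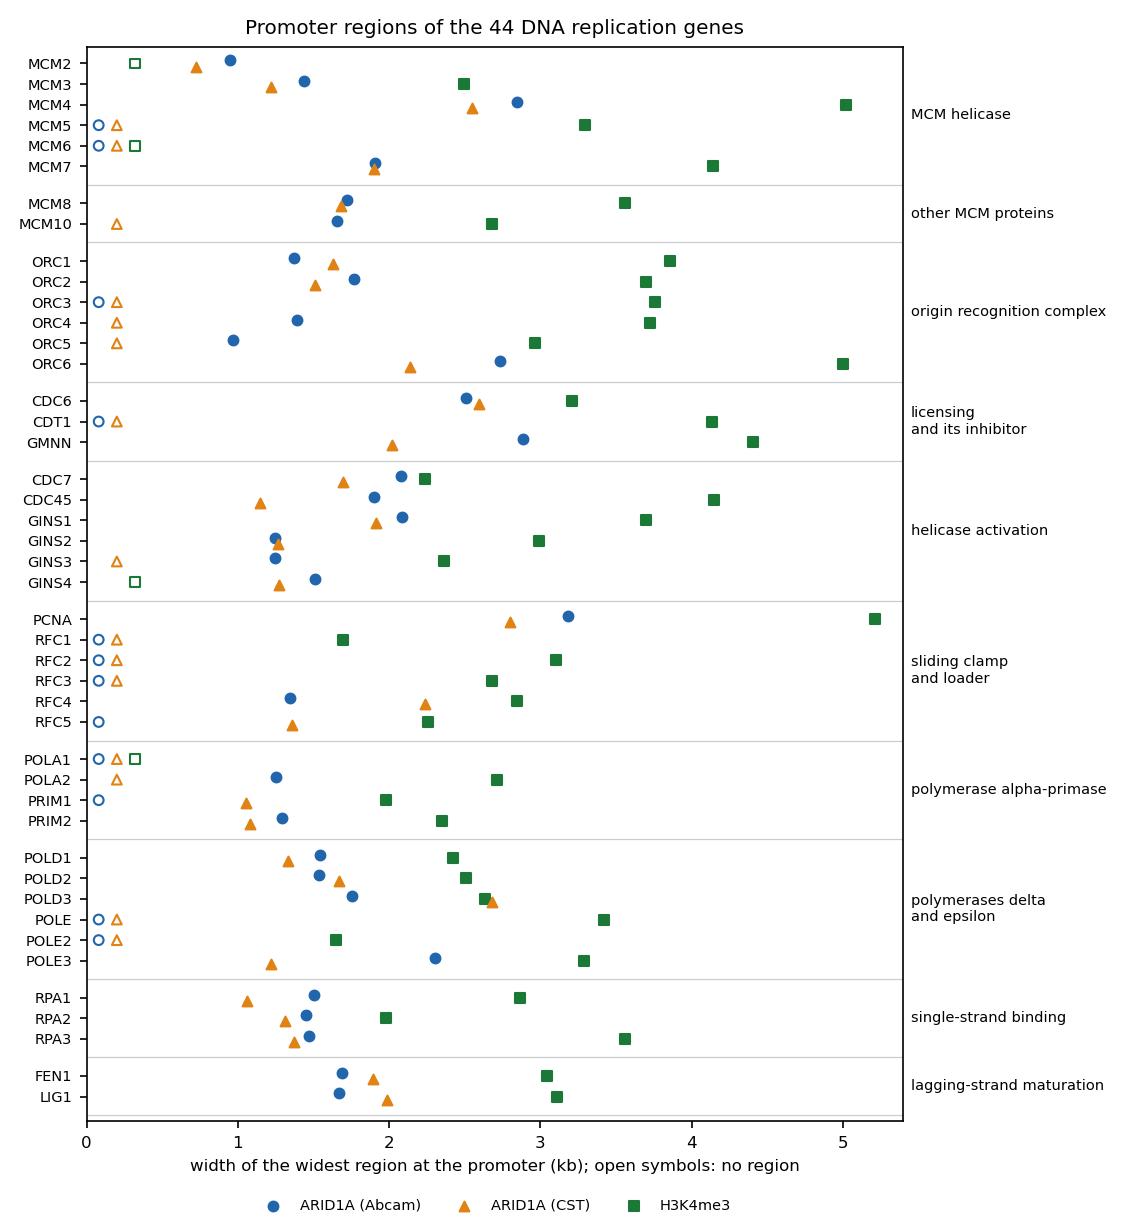
Width in kb of the widest region of each list at the promoter of each of the 44 DNA replication genes, grouped by role. Filled symbols are called regions and open symbols near 0 mean that no region was called. PCNA had the widest Abcam region, 3185 bp, and MCM6 and POLA1 had none of any list.

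Within the MCM helicase, the ring of MCM2 to MCM7 that unwinds DNA, the 6 genes fell into different classes. MCM3, MCM4 and MCM7 carried H3K4me3 and both antibodies. MCM4 had the largest regions of these, with 2843 bp for Abcam, 2546 bp for CST and 5023 bp for H3K4me3, around a start it shares head to head with PRKDC, which encodes a DNA repair kinase. Its Abcam region reached from -1739 to +1103 bp about the canonical TSS. MCM7 had 1907 bp for Abcam and 1897 bp for CST, and MCM3 1437 bp and 1222 bp. MCM5 had an H3K4me3 region of 3297 bp on chromosome 22, from 35398888 to 35402184, and neither antibody. The ARID1A regions nearest to it lay 18495 bp (Abcam) and 17987 bp (CST) away, at the promoter of HMOX1, which encodes heme oxygenase. MCM2 was the reverse case, with ARID1A and without H3K4me3. Its Abcam region on chromosome 3 ran from 127597988 to 127598936 (949 bp) and its CST region from 127598056 to 127598779 (724 bp), both across the canonical TSS. These were narrow, wider than only 4.18% and 2.06% of the promoter regions of other marked genes. The H3K4me3 region nearest to MCM2 lay 6169 bp away, from 127588489 to 127592242, at another start of TPRA1, a neighbour whose TSSs include one head to head with MCM2. MCM6 had no region of any list at its single annotated TSS. The ARID1A regions nearest to MCM6 lay 71685 bp away with either antibody, and the nearest H3K4me3 region 131924 bp away, at UBXN4.

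Of the relatives of the helicase, MCM8, which acts in recombination repair, carried all 3 marks, with an Abcam region of 1724 bp from 5949584 to 5951307 on chromosome 20, a CST region of 1685 bp and an H3K4me3 region of 3559 bp. MCM10, which helps start the fork, had an Abcam region of 1654 bp from 13160755 to 13162408 on chromosome 10 and no CST region within 60469 bp. Its H3K4me3 region spanned 2683 bp.

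The origin recognition complex, which binds origins and recruits the licensing factors, carried H3K4me3 at all 6 genes. ORC1, ORC2 and ORC6 had both antibodies, ORC4 and ORC5 had Abcam alone, and ORC3 had neither. ORC6 stood out with 2736 bp for Abcam (46687955 to 46690690 on chromosome 16), 2136 bp for CST and 4998 bp for H3K4me3. The Abcam region of ORC4 spanned 1394 bp (148019804 to 148021197 on chromosome 2), and the nearest CST region was 571292 bp away. That of ORC5 spanned 967 bp (104207403 to 104208369 on chromosome 7) and was the narrowest Abcam region among the marked replication genes. ORC3 had an H3K4me3 region of 3756 bp (87587816 to 87591571 on chromosome 6), wider than 71.1% of those at other genes, and its nearest ARID1A regions lay about 49 kb off (49287 bp for Abcam and 49672 bp for CST), at AKIRIN2.

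The licensing genes differed from one another. CDC6, the ATPase that loads the helicase, and GMNN, which encodes the inhibitor of CDT1, were among the members with the widest ARID1A regions, whereas CDT1 itself had none at its promoter. CDC6 had an Abcam region of 2510 bp (40286863 to 40289372 on chromosome 17) and a CST region of 2595 bp (40286513 to 40289107). Both began farther upstream than its H3K4me3 region, which ran from 40287176 to 40290385 (3210 bp). GMNN had 2884 bp for Abcam, 2018 bp for CST and 4403 bp for H3K4me3. CDT1 had an H3K4me3 region of 4138 bp (88801584 to 88805721 on chromosome 16), wider than 81.1% of those at other genes. The nearest ARID1A regions lay past the 3′ end of CDT1, 4464 bp (Abcam) and 3933 bp (CST) from its nearest TSS, at the promoter of APRT, which encodes a purine salvage enzyme and carried an H3K4me3 region of 5223 bp there.

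Among the helicase activators, CDC7, CDC45, GINS1 and GINS2 carried H3K4me3 and both antibodies. GINS1 had them at each of 2 promoters. At the canonical TSS the regions spanned 1285 bp (Abcam), 1668 bp (CST) and 3015 bp (H3K4me3). At an upstream TSS shared with ABHD12, over 16 kb before the canonical one (-16215 bp at the near end), they spanned 2085 bp, 1911 bp and 3701 bp. GINS3 had an Abcam region of 1245 bp (58392055 to 58393299 on chromosome 16) without CST. GINS4 had ARID1A without H3K4me3, as MCM2 did. Its Abcam region reached from -1132 to +380 bp and its CST region from -716 to +557 bp about the canonical TSS, and the nearest H3K4me3 region was 36860 bp away, at GOLGA7.

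The sliding clamp gene carried both antibodies at its canonical TSS and the 5 genes of its loader did not. PCNA, the ring that tethers the polymerases, had the largest sum of its widest Abcam and CST regions of all members, with these lying at different starts. At the canonical TSS on chromosome 20 the Abcam region ran from 5118179 to 5121363 (3185 bp), the CST region from 5119021 to 5120850 (1830 bp) and the H3K4me3 region from 5116436 to 5121645 (5210 bp). At a TSS farther upstream, shared head to head with CDS2, a further set spanned 3049 bp, 2797 bp and 3732 bp. Of the 5 loader genes, RFC1, RFC2 and RFC3 had H3K4me3 and neither antibody, and RFC5 had CST alone (1355 bp, 118016312 to 118017666 on chromosome 12). Their H3K4me3 regions spanned 1694 bp at RFC1, 3102 bp at RFC2 and 2679 bp at RFC3. RFC4 counted as having both antibodies, but not at its main start. Its Abcam and CST regions lay at an internal TSS near the 3′ end of the gene, 15375 and 14237 bp past the canonical TSS, whereas its H3K4me3 region covered the canonical TSS, which no ARID1A region did. At the canonical start alone, 4 of the 5 loader genes therefore had no region of either antibody. At that start neither antibody lay at 23.1% of all marked replication genes and 20.6% of other marked genes. With 5 genes the share of the loader is very uncertain, and it was not tested.

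Of the 4 genes of polymerase alpha-primase, PRIM2, the large primase subunit, alone had both antibodies (1292 bp for Abcam, 57316730 to 57318021, and 1081 bp for CST, 57316494 to 57317574, on chromosome 6). POLA2, the regulatory subunit, had Abcam alone (1249 bp, 65261415 to 65262663 on chromosome 11), and PRIM1, the catalytic primase subunit, had CST alone (1051 bp, 56751752 to 56752802 on chromosome 12). POLA1, the catalytic polymerase subunit on chromosome X, had no region of any list at its promoter, with the nearest Abcam region 187152 bp, the nearest CST region 187285 bp and the nearest H3K4me3 region 541970 bp away. POLD1, POLD2 and POLD3, the catalytic and accessory subunits of polymerase delta, all had both antibodies. POLE and POLE2, the catalytic and second subunits of polymerase epsilon, had neither, with H3K4me3 regions of 3420 bp and 1652 bp, the last being the narrowest among the members. POLE3, a histone-fold subunit of epsilon, had both. So did its partner POLE4, which is counted among the further replication factors below, with 1674 bp for Abcam, 729 bp for CST and no H3K4me3 region. POLD3 had ARID1A at 2 promoters, with regions of 1111 bp (Abcam) and 1495 bp (CST) at the canonical TSS and of 1757 bp and 2678 bp at an upstream TSS shared with LIPT2, where the near end of the Abcam region lay at -98033 bp.

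All 3 genes of RPA, which coats single-stranded DNA, and both genes of lagging-strand maturation had H3K4me3 and both antibodies. RPA3 was the widest of the RPA genes by summed ARID1A width, with 1473 bp for Abcam, 1372 bp for CST and 3562 bp for H3K4me3, all at a TSS shared with UMAD1 and over 75 kb downstream of its canonical TSS, which carried none. LIG1, the ligase that seals nicks, had 1666 bp for Abcam (48169425 to 48171090 on chromosome 19), 1987 bp for CST and 3111 bp for H3K4me3, and FEN1, the flap nuclease, 1690 bp, 1891 bp and 3044 bp.

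**Figure D3:**
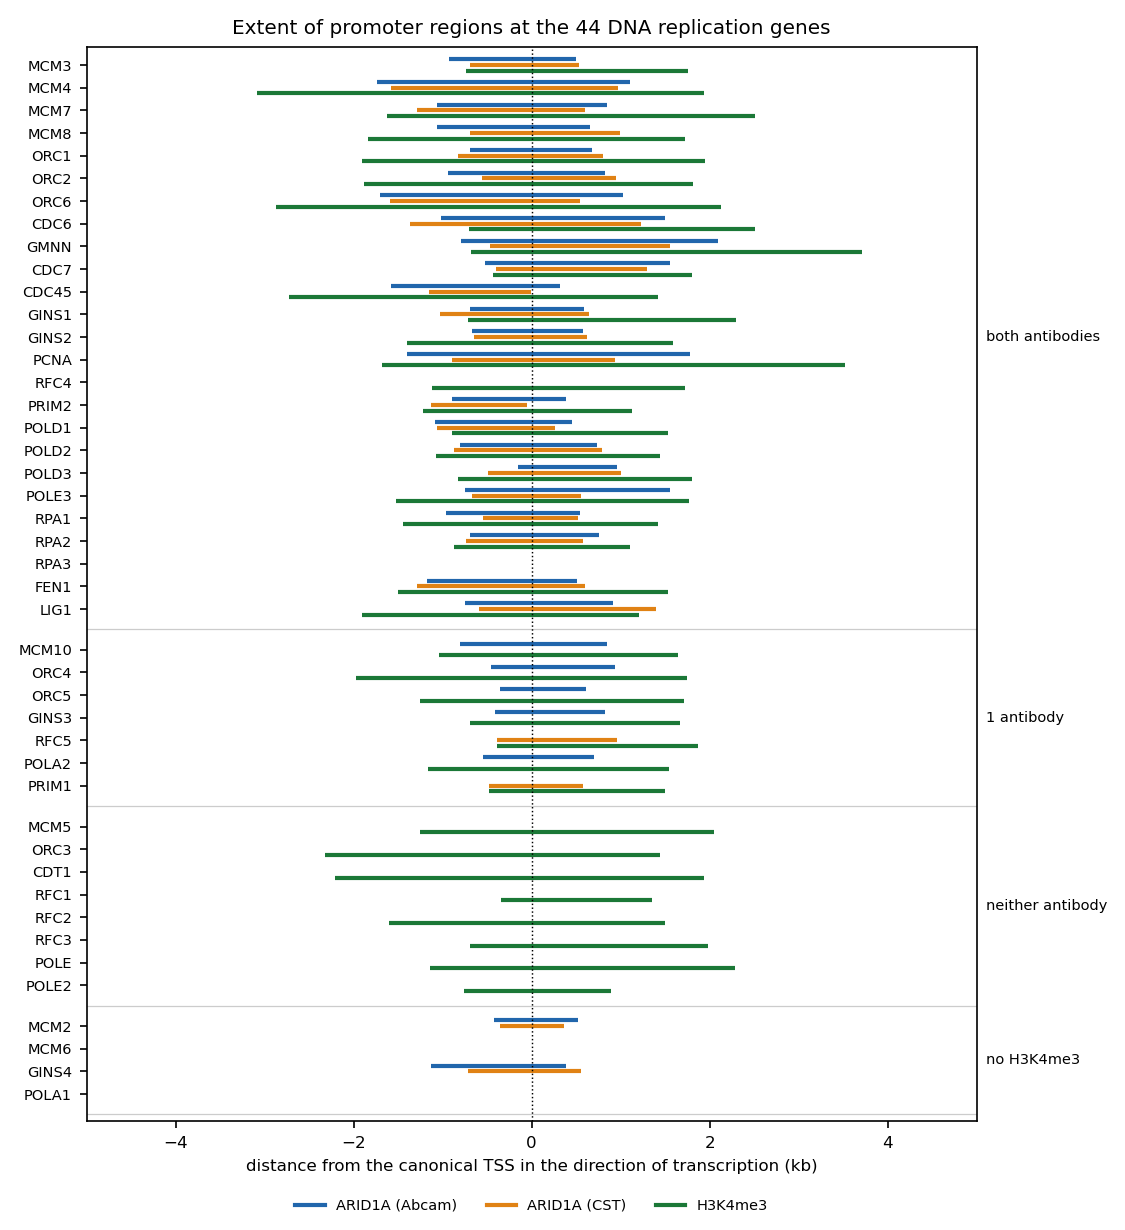
Extent of each promoter region around the canonical TSS (kb, in the direction of transcription) at the 44 DNA replication genes, grouped by the antibodies called. Regions beyond 5 kb are outside the plot, which leaves RFC4 without its ARID1A regions and RPA3 empty. Most ARID1A regions straddle the TSS inside the H3K4me3 region.

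The placement of ARID1A at these genes followed the common pattern of marked promoters. Abcam regions covered the canonical TSS at 28 of 30 members (93.3%), against 90.0% of other genes, and CST regions at 23 of 27 (85.2%), against 86.1%. The median midpoint lay at -20 bp for Abcam, -40 bp for CST and +188 bp for H3K4me3 from the TSS, against -8, -44 and +309 bp at other genes. The widest Abcam region lay wholly inside an H3K4me3 region at 24 of 30 members (80.0%), against 78.2%, and the CST region at 22 of 27 (81.5%), against 78.6%.

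**Figure D4:**
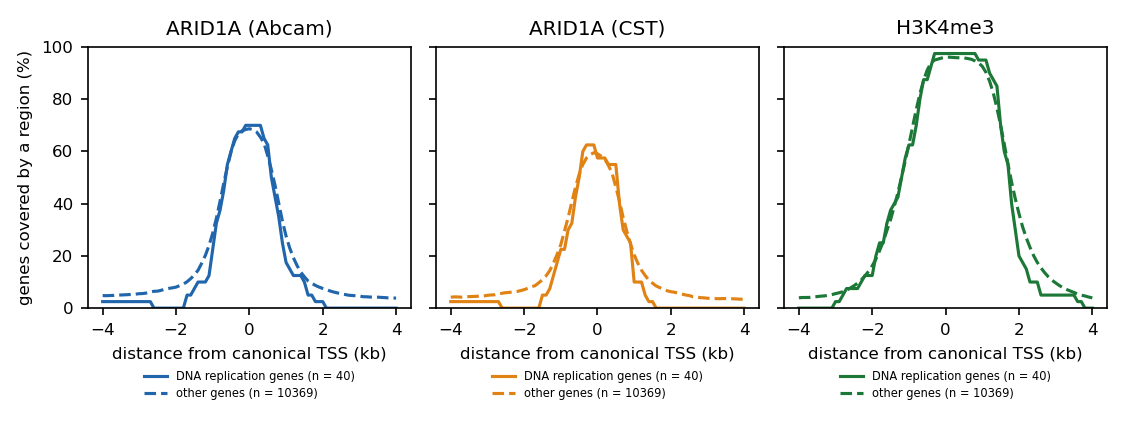
Share of genes (%) covered by a called region at each distance from the canonical TSS (kb), for the 40 DNA replication genes with H3K4me3 (solid) and the 10369 other genes with H3K4me3 (dashed). At the TSS itself, Abcam regions covered 70.0% of the replication genes and 68.7% of other genes, and CST regions 57.5% and 59.1%.

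ARID1A was also counted by the width of the H3K4me3 region. Over 4 classes of rising H3K4me3 width, both antibodies lay at 6 of 11, 6 of 11, 7 of 11 and 6 of 7 replication genes (54.5, 54.5, 63.6 and 85.7%), against 48.9, 59.7, 66.6 and 79.9% of other genes. The share grew with width at other genes, whereas the intervals of the replication genes overlapped broadly, with 23.4 to 83.3% in the narrowest class and 42.1 to 99.6% in the widest. Neither antibody was called at 18.2, 18.2, 27.3 and 14.3% of the replication genes, against 30.9, 19.4, 15.8 and 9.02% of other genes. The 7 members of the widest class, over 3893 bp, were MCM4, MCM7, ORC6, CDT1, GMNN, CDC45 and PCNA, of which CDT1 alone had no ARID1A region. Members with neither antibody had a median H3K4me3 width of 3200 bp (n = 8, range 1652 to 4138 bp) and those with both 3210 bp (n = 25), whereas at other genes the medians were 2763 bp with neither and 3344 bp with both. The members with both and with neither thus had about the same median H3K4me3 width. These are descriptions, and no test was made.

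**Figure D5:**
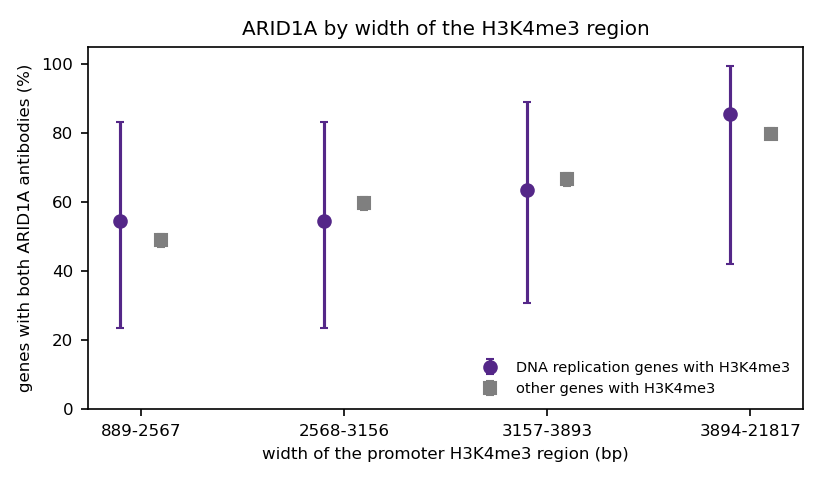
Share of genes with both ARID1A antibodies (%) against the width class of the promoter H3K4me3 region (bp), for the DNA replication genes (circles) and other genes (squares), with 95% exact intervals. Both sets are highest in the widest class, at 85.7% and 79.9%.

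Many replication genes share their start with a neighbour on the opposite strand. A TSS of another protein-coding gene on the opposite strand lay within 1 kb at 18 of the 40 marked members (45.0%), against 25.8% of other marked genes. Both antibodies lay at 14 of these 18 (77.8%, interval 52.4 to 93.6%) and at 11 of the 22 others (50%, interval 28.2 to 71.8%), against 68.7% and 62.0% of other genes. The intervals overlap. At shared starts such as MCM7 with AP4M1, ORC1 with PRPF38A or FEN1 with TMEM258, a region cannot be ascribed to one gene of the pair. ORC3, ORC4, PRIM1 and POLE shared a start without carrying both antibodies.

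To show the sequence at these starts, promoter sequences were taken from RefSeq (GRCh38.p14), from 250 bases before to 50 bases after the start, with the entry nearest the canonical TSS. They were found for 38 of the 44 members, all but MCM4, MCM5, GINS4, POLD3, RPA2 and RPA3. The first set shows 3 of the 4 members with the largest summed ARID1A widths, and MCM2, which had ARID1A without H3K4me3 and was chosen after its values were seen. Capitals mark the E2F word TTTNNCGC and the CCAAT box CCAAT, on either strand. The coordinates are chr20:5119909-5120208 (minus strand), chr17:40287629-40287928 (plus strand), chr6:24774687-24774986 (plus strand) and chr3:127598161-127598460 (plus strand).
PCNA: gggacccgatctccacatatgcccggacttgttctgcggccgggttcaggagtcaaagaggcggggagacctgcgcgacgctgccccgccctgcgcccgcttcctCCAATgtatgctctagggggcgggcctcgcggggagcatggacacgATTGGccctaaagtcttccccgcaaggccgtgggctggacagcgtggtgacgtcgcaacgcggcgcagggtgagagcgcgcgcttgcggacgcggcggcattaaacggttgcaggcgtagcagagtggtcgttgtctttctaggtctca
CDC6: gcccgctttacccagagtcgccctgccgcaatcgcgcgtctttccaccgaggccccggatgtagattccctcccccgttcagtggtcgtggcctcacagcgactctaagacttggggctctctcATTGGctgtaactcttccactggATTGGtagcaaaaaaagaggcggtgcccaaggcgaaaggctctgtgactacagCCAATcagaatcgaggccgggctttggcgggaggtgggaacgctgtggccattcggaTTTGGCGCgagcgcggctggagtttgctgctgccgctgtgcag
GMNN: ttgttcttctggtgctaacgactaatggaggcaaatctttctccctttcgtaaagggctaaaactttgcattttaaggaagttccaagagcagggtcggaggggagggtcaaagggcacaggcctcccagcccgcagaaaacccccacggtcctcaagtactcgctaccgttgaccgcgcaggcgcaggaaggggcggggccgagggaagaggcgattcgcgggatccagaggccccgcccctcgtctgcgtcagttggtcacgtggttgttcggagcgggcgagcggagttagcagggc
MCM2: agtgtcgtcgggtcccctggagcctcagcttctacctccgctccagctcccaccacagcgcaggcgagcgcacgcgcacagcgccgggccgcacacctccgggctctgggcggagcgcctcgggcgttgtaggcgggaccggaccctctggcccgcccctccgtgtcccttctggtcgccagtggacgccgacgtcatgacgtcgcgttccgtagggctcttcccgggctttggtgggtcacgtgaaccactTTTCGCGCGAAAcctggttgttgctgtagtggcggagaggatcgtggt
CDC6 held 1 E2F word beside 3 CCAAT boxes and PCNA 2 CCAAT boxes without the E2F word. GMNN held neither word, and MCM2 2 E2F words that overlap on opposite strands.

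The second set shows promoters with wide H3K4me3 and no region of either antibody, with the same capitals. By width the set would also include MCM5. The coordinates are chr16:88803539-88803838 (plus strand), chr6:87589885-87590184 (plus strand) and chr12:132687293-132687592 (minus strand).
CDT1: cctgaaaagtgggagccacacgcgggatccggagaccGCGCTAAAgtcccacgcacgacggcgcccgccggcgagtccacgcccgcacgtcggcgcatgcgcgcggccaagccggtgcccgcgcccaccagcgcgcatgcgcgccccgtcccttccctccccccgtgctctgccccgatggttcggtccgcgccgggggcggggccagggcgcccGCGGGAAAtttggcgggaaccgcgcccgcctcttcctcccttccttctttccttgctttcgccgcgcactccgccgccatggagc
ORC3: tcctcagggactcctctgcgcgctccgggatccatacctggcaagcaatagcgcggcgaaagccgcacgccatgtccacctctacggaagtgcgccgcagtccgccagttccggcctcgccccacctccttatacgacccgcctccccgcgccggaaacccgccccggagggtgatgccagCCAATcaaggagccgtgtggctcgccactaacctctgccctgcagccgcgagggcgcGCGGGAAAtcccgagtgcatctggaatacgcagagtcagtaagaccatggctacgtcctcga
POLE: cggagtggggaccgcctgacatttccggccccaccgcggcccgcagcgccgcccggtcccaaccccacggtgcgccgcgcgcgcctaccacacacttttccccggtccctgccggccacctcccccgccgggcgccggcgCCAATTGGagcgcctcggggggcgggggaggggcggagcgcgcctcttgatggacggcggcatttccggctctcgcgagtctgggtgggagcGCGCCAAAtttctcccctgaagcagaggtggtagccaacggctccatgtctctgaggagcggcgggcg
CDT1 held 2 E2F words, and ORC3 and POLE 1 each. ORC3 also held 1 CCAAT box and POLE 2, which overlap on opposite strands.

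The E2F word was more common at replication genes than at promoters at large. It lay in 20 of 38 members (52.6%), against 9.09% of all 15276 protein-coding promoters in the table and 11.7% of the 8504 with H3K4me3. It was found at 8 of 21 members with H3K4me3 and both antibodies (38.1%) and at 6 of 7 with neither (85.7%, all but RFC2), against 11.1% and 12.9% of all promoters of those classes. The classes take any TSS, so the 21 include RFC4, whose ARID1A regions lie far from the sequence searched. MCM6 and POLA1, with no region of any list, held 4 and 1. The other words are given against all promoters and then against those with H3K4me3. The CCAAT box lay in 21 members (55.3%), against 36.5% and 37.8%. Among marked members it lay in 13 of 21 with both antibodies (61.9%) and 3 of 7 with neither (42.9%). Over all marked promoters of those classes the shares were 41.6% and 29.1%, also higher with both. The Sp1/KLF word GGGCGG lay in 28 (73.7%), against 61.8% and 75.9%, and the ETS word CCGGAAG in 7 (18.4%), against 14.7% and 22.6%. For both, the share of the members lay above that of all promoters and below that of marked promoters. The NRF1 half-site GCGCATGC lay in 3 (7.89%), against 4.37% and 6.24%, and TGACGTCA, the CRE, in 3 (7.89%), against 2.77% and 3.82%. The AP-1 word TGANTCA lay in 1 member, GINS1 (2.63%), against 5.51% and 3.53%. The cell cycle homology region, searched as TTTGAA or TTCGAA, lay in 1, MCM6 (2.63%), against 13.0% and 10.2%, and TATAAA in 1, GINS3 (2.63%), against 9.43% and 4.54%. The control word CTTCAG, chosen for no factor, lay in 4 (10.5%), against 17.2% and 14.7%. A match of letters is not a bound site, a site can differ from the word searched, and the numbers per class are small. The median GC share was 64.2%, against 63.7% over all promoters and 66.7% over marked ones. The median ratio of observed to expected CpG was 0.967, against 0.783 and 0.871.

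Beyond the promoter, ARID1A regions were counted over the gene body. Abcam regions that touched the gene but none of its promoters lay in 10 of the 40 marked members (25%, interval 12.7 to 41.2%), against 34.4% of other marked genes, which the interval includes. CST regions lay in 7 (17.5%, interval 7.34 to 32.8%), against 33.3%, just above the interval. Per 100 kb of gene this was 0.871 Abcam and 0.532 CST regions, against 1.38 and 1.23. The 4 members without H3K4me3 had none. The count depends on the choice of TSS, with 29 Abcam and CST regions added together and 42 with the most upstream TSS as the only promoter. How it changes at other genes was not counted. Of the 18 Abcam regions 6 lay in POLD3, whose annotated span begins far upstream of its canonical TSS, and 5 of these 6 lay before that TSS. Across all members 8 of 18 Abcam and 6 of 11 CST gene-body regions lay before the canonical TSS, in POLD3, GINS1 and GINS3. No gene-body ARID1A region lay at the promoter of another protein-coding gene. RFC1, which had no promoter ARID1A, had 2 intronic regions of each antibody, at 39353431 to 39354784 and 39348458 to 39349645 on chromosome 4 for Abcam, each overlapped by CST. POLE2 had 1 of each, of 695 bp and 1005 bp, in an intron. ORC2 had 1 of each in an intron, of 2167 bp and 2033 bp.

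The marked members with neither antibody varied in how far off the nearest ARID1A region lay. For the 8 marked members with neither antibody, the median distance from a TSS to the nearest Abcam region was 15030 bp, against 21634 bp for such genes elsewhere, and to the nearest CST region 14873 bp, against 25304 bp. RFC3 was the farthest, at 119542 bp for Abcam. RFC2 had an Abcam region 7916 bp and a CST region 8132 bp away.

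Other genes of the cell cycle were counted the same way. Of 27 further replication factors 25 carried H3K4me3, and 17 of these both antibodies (68.0%, interval 46.5 to 85.1%), led by POLD4, MCM9, DTL and DSCC1, whereas ATAD5, DBF4B, DNA2 and TOPBP1 had neither. Of 9 chromatin assembly genes 8 were marked and 5 of these had both (62.5%, interval 24.5 to 91.5%). NASP and UHRF1 were among them, while DNMT1 and SSRP1 had neither. Of 10 genes of deoxynucleotide synthesis 9 were marked and 5 of these had both (55.6%, interval 21.2 to 86.3%). RRM2, the small subunit of ribonucleotide reductase, had the widest regions of that list, 4171 bp for Abcam and 4500 bp for CST, whereas RRM1, the large subunit, had neither. All 30 mitotic genes were marked and 25 had both (83.3%, interval 65.3 to 94.4%), led by NCAPD2, KIF11, TPX2 and PTTG1, with BIRC5 and CENPE having neither. The 4 lists together had both antibodies at 52 of 72 marked promoters (72.2%, interval 60.4 to 82.1%) and neither at 9 (12.5%, interval 5.88 to 22.4%). Among all marked genes outside the 44 replication genes the shares were 63.8% and 18.8%, which these intervals include. Of the single lists, only the interval of the mitotic genes lay above 63.8%. Without H3K4me3, 2 of the 4 replication genes had both antibodies, MCM2 and GINS4 (interval 6.76 to 93.2%). The share of other unmarked genes was 9.39%, which the interval includes.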

How the data were processed

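CUT&RUN regions of RT112 cells were analysed as deposited. The authors trimmed reads with cutadapt, aligned them with bwa-mem2 to GRCh38 (hg38) and the spike-in genome of E. coli, dropped duplicates (Picard) and reads lacking a unique position (samtools), scaled replicates by spike-in reads, called peaks with SEACR, retained only a small top fraction of them and merged replicates with bedtools. Versions are not given in the sources used here. SEACR was run in relaxed mode by the methods and in stringent mode by the list names, so the threshold is uncertain, and that retention bears on every absence of a region. Merging keeps a region that 1 replicate may have carried, and repeats can lack regions. The authors' deposited lists hold chromosome, start and end only, without signal, score or p-value. Depth is therefore unknown. Positions are printed counting from 1.

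Overlap was at least 1 bp. Regions on other sequences (152 Abcam, 159 CST and 14 H3K4me3) were left out. Head-to-head means opposite-strand TSSs within 1 kb. A gene-body region overlapped the gene span but no promoter window. Python 3.11.15, NumPy 2.4.6, SciPy 1.17.1 and Matplotlib 3.10.9 were used, and the overlap code was tested on simulated data. No list was tested, and shares were described beside those of other genes.

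The members, lists and words were chosen with earlier results of these data known. Positions or widths are given for members with 1 antibody, without H3K4me3, with neither antibody, and with the largest summed ARID1A width of each role, and for up to 4 genes per class of other lists. Other members' values were added after they were seen, as were the cell type genes. Alternatives were the canonical or the most upstream TSS alone, windows of 500 bp or 3 kb, regions no narrower than 200 bp or than the median of the list, joining of regions under 500 bp apart, an overlap of at least 200 bp, overlap of the antibodies or with H3K4me3, and leaving out shared promoters.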

Additional observations from a re-analysis of the deposited data

How the results depend on the processing

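Promoter H3K4me3 lay at 45.5% of the replication genes, against 29.0% of other genes, when regions narrower than their list's median were left out, which by construction removes regions. Under every other alternative run, the share of the 44 replication genes with H3K4me3 stayed within the interval of the value reported. So did the shares of the marked ones with both antibodies or neither. These intervals are wide, 45.8 to 77.3% for both antibodies, so staying within them is a weak criterion. Both antibodies lay at 59.0% of the marked replication genes at the canonical TSS, against 61.0% of other genes. At the most upstream TSS the share was 59.5%, against 60.6%. It was 50% with the wider regions only, against 49.1%. With the wider regions only, neither antibody lay at 35% of the marked replication genes (7 of 20), against 26.8% of other genes, and 19 of 44 members changed class. Neither antibody lay at 23.1% and 24.3% at the canonical and the most upstream TSS, against 20.6% and 20.8%. Leaving the median width aside, 6 of 44 members changed class under some alternative. RFC4 and RPA3 lost both antibodies at the canonical TSS, and RFC4, RFC5, PRIM2 and RPA3 lost theirs at the most upstream TSS. MCM2, GINS4 and RFC4 lost them where ARID1A had to overlap H3K4me3. RFC4 kept CST alone within 500 bp. The 10 members with neither antibody had none under any alternative. Abcam and CST gene-body regions added together numbered 29, and 42 with the most upstream TSS as the only promoter. That change was not counted at other genes.

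No paired analysis was possible because the lists are merged over replicates, and leaving out a replicate was not possible either. The depth is unknown, so every absence of a region stated here holds only at the caller's threshold.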
